A study of Homo sapiens with 12 samples.

Results

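The 37 genes described here make up the working kit of the renal proximal tubule apart from its transporters: receptors of protein reabsorption, brush border enzymes and their scaffold, water and acid-base proteins, metabolic enzymes, and the transcription factors of the lineage. They were taken by symbol from a table of 20286 human genes, and all 37 were found there under 1 Ensembl identifier each. The cells were HK-2, an adult human proximal tubule epithelial line immortalised with papillomavirus E6/E7 genes, labelled as WT. Every culture was kept in DMEM with fetal bovine serum and sampled after 48 h. Cells received 1 of 3 recombinant preparations (S100A8 alone, S100A9 alone, or S100A8/S100A9), at a concentration the labels give as 5 mg/mL, and control cells received a matching amount of PBS. Each of the 4 groups held 3 libraries of poly(A)-selected RNA, with library totals between 15882193 and 20748334 counts. The labels do not say whether the 3 libraries came from separate cultures, so the p-values below measure the spread between these libraries, which may be technical.

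The proximal tubule takes back most of what the glomerulus filters. Megalin and cubilin (LRP2 and CUBN) at its apical membrane capture filtered proteins, peptidases of the brush border split filtered peptides, and the cell makes glucose, arginine, creatine precursors and active vitamin D for the body. HNF4A drives many of these genes in the mature segment, whereas PAX2, PAX8 and LHX1 act in the developing nephron. Tubule cells are known to lose parts of this kit when they are injured or grown in culture. S100A8 and S100A9 are calcium-binding proteins released by neutrophils and monocytes, and the study asked what they do to tubule cells when added from outside.

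HK-2 control cells held a partial set. With the level taken as the mean of the deposited FPKM (fragments scaled to transcript length and library size) over the 3 control libraries, 19 of the 37 genes stood at 1 FPKM or more. That is 51.4% of them, beside 58.8% of all genes of the table. The other 18 comprised 15 genes above 0 and under 1 FPKM and 3 genes listed at 0. By role, 1 of 4 endocytosis genes reached 1 FPKM, as did 3 of 7 brush border enzymes, 2 of 3 scaffold genes, 4 of 6 water, acid-base and sodium pump genes, 7 of 13 metabolic enzymes and 2 of 4 transcription factors. The gene just inside the bound was CA12 at 1.45 FPKM and the gene just outside was PAX2 at 0.900 FPKM. For 36 of the 37 genes the group mean lay on the same side of 1 FPKM in all 4 groups. No library of kidney tissue or primary tubule cells was analysed here, so these are levels in HK-2 cells and not a measured loss. In bulk RNA, fewer cells that express a gene and less RNA per cell cannot be told apart.

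**Figure D1:**
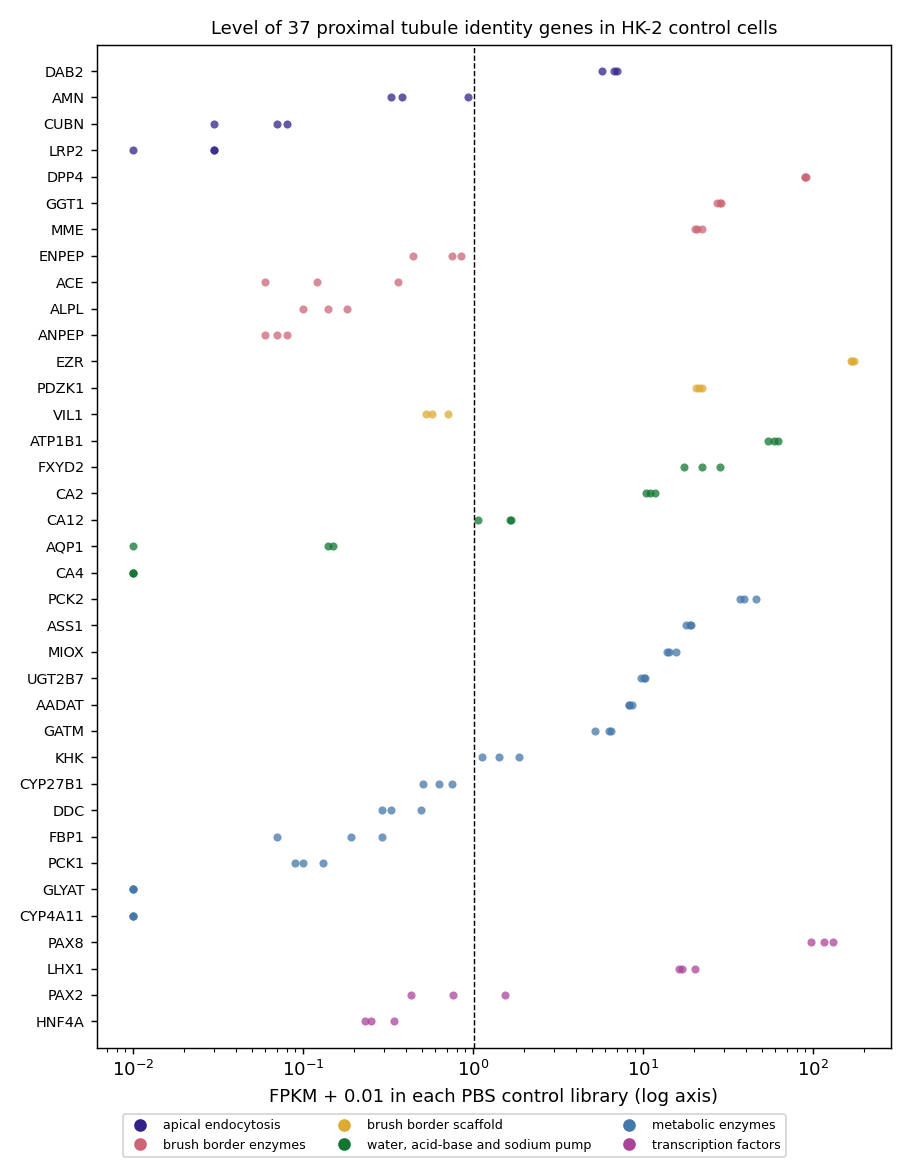
Deposited FPKM plus 0.01 of the 37 genes in each of the 3 PBS control libraries on a log axis, with genes grouped by role and 1 point per library. The dashed line marks 1 FPKM, which 19 genes reach on average, with EZR and PAX8 at the top and CA4, GLYAT and CYP4A11 at 0.

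Receptor-mediated endocytosis was the role with the fewest expressed genes. LRP2, which encodes the scavenger receptor megalin, gave 2, 2 and 1 counts after S100A8, 1, 1 and 1 after S100A9, 5, 1 and 0 after S100A8/S100A9, and 3, 4 and 0 in control cells. These 21 counts are at the level of a few fragments per library in every group. CUBN, encoding cubilin, the partner receptor for albumin and vitamin B12 carrier protein, gave 5, 9 and 14 counts after S100A8, 8, 9 and 13 after S100A9, 15, 8 and 12 after S100A8/S100A9, and 15, 3 and 13 in control cells. Its highest library held 15 counts and its level in control cells was 0.05 ± 0.0265 FPKM (SD, n = 3), while AMN, the membrane anchor of cubilin, averaged 0.537 ± 0.333 FPKM. AMN shares 761 exon bases with CDC42BPB on the opposite strand. The protocol describes no step that marks strand, so reads within these shared bases cannot be told apart. DAB2, the cytosolic adaptor that links megalin to clathrin, was the exception with 5.75, 7.02 and 6.73 FPKM in the 3 control libraries. Among 12 partners of this pathway (chaperones, sorting and lysosomal genes such as LRPAP1 and LAMP1), all 12 reached 1 FPKM in control cells.

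The brush border enzymes split into a high set and a set under 1 FPKM. DPP4, the dipeptidyl peptidase that removes N-terminal dipeptides, had 90.0, 89.3 and 91.3 FPKM in control libraries and stood above 96.5% of all genes of the table. GGT1, the gamma-glutamyl transferase that starts glutathione breakdown, had 28.6, 28.5 and 27.1 FPKM, with 306 exon bases shared with SNRPD3. MME, the neutral endopeptidase neprilysin, had 20.2, 22.1 and 20.7 FPKM. All 3 varied little between control libraries. ENPEP, the aminopeptidase that trims angiotensin II, averaged 0.670 ± 0.214 FPKM in control cells (SD, n = 3). ACE, which makes angiotensin II, was at 0.170 ± 0.159 FPKM, ALPL, tissue-nonspecific alkaline phosphatase, at 0.130 ± 0.0400 FPKM and ANPEP, aminopeptidase N, at 0.0600 ± 0.01 FPKM. ANPEP and ALPL gave 30 and 34 counts over all 12 libraries, whereas ENPEP gave 776.

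Of the 3 scaffold genes, EZR and PDZK1 were above 1 FPKM and VIL1 was below it. EZR, ezrin, which ties membrane proteins to actin, had 175, 169 and 168 FPKM in control libraries, the highest level among the 37 genes and above 98.5% of the table. PDZK1, the PDZ scaffold that holds apical transporters, had 20.4, 21.2 and 22.1 FPKM. VIL1, the actin bundler of microvilli, averaged 0.593 ± 0.0945 FPKM (SD, n = 3). VIL1 shares 3045 exon bases with USP37 on the opposite strand, so part of its reads may belong to USP37, which was not tested.

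In the water, acid-base and sodium pump set, AQP1, the constitutive water channel of this segment, gave 4, 1 and 5 counts after S100A8, 1, 1 and 4 after S100A9, 0, 5 and 6 after S100A8/S100A9, and 0, 1 and 5 in control cells. The 12 libraries held 0 to 6 counts and the groups overlapped. ATP1B1, the beta subunit of the sodium pump, had 62.0, 54.3 and 58.5 FPKM in control libraries. FXYD2, the gamma subunit that tunes the pump, had 28.2, 17.4 and 22.2 FPKM, a wide spread between libraries. CA2, the cytosolic carbonic anhydrase that serves bicarbonate reabsorption, had 10.4, 11 and 11.7 FPKM, and CA12, a membrane-bound carbonic anhydrase, had 1.06, 1.65 and 1.64 FPKM. CA4, the membrane-anchored carbonic anhydrase of the brush border, was listed at 0 in the 3 control libraries.

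Metabolic enzymes ran over the whole range. PCK2, the mitochondrial phosphoenolpyruvate carboxykinase, had 39.0, 46.1 and 37.0 FPKM in control libraries. ASS1, which makes argininosuccinate on the way to arginine, had 17.8, 19 and 18.8 FPKM. MIOX, which opens the inositol ring and is nearly restricted to this segment, had 13.8, 15.6 and 14.1 FPKM. These 3 were the highest of the 13 enzymes. UGT2B7, a glucuronosyltransferase, had 10.1, 10.3 and 9.72 FPKM and AADAT, which makes kynurenic acid, had 8.26, 8.54 and 8.23 FPKM. GATM, which makes the creatine precursor guanidinoacetate, had 6.28, 6.47 and 5.20 FPKM, and KHK, ketohexokinase of fructose breakdown, had 1.41, 1.12 and 1.85 FPKM, with 729 exon bases shared with CGREF1 on the opposite strand. The other 2 gluconeogenic enzymes of the set were near silent. PCK1, the cytosolic carboxykinase, averaged 0.0967 ± 0.0208 FPKM and FBP1, fructose bisphosphatase, 0.173 ± 0.110 FPKM in control cells (SD, n = 3). CYP27B1, which activates vitamin D, averaged 0.620 ± 0.120 FPKM, and DDC, which makes dopamine in this segment, 0.360 ± 0.106 FPKM. The last 2 enzymes were not detected beyond stray fragments. CYP4A11, a fatty acid omega-hydroxylase, had 0 counts in all 12 libraries, and the limit that a count of 0 allows (3 counts) is worth 0.145 to 0.189 CPM, normalised counts scaled to library size, depending on the library. GLYAT, glycine N-acyltransferase, had 1 count in 1 S100A8 library. UGT2B7, GGT1 and CYP4A11 have close paralogs, so the split of reads among copies is uncertain for them.

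Of the lineage transcription factors, PAX8 and LHX1 were expressed and HNF4A was near silent. PAX8, active in the early nephron and kept in tubule epithelium, had 117, 97.2 and 132 FPKM in control libraries, above 97.5% of the table. LHX1, which patterns the early nephron, had 16.2, 20.1 and 17.0 FPKM. PAX2, which acts with PAX8 in the developing nephron, had 0.75, 0.42 and 1.53 FPKM, the only one of the 37 genes whose group mean crossed 1 FPKM, with 1.02 after S100A8, 1.12 after S100A9, 0.883 after S100A8/S100A9 and 0.900 in control cells. HNF4A, the nuclear receptor of mature proximal tubule identity, had 0.33, 0.24 and 0.22 FPKM, and its 3 control libraries all stayed under 1. In counts, HNF4A gave 12, 13 and 5 counts after S100A8, 11, 6 and 14 after S100A9, 12, 8 and 5 after S100A8/S100A9, and 19, 14 and 12 in control cells.

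Promoter windows of 300 bases (250 before and 50 after a transcript start, from RefSeq on GRCh38.p14) were found for 28 of the 37 genes. The HNF1 core GTTAAT, searched on both strands so that ATTAAC also counts, occurred in DAB2 and MIOX among genes at 1 FPKM or more and in ANPEP and HNF4A among genes under 1 FPKM. It occurred in 4 of 43 windows of the set (9.3%), beside 6.88% of all windows of the same length. The HNF4 element CAAAGTCCA, also on both strands, occurred in PDZK1 and AADAT. It was in 3 of 43 windows of the set (6.98%), beside 0.384% of all windows. Overlapping windows of PDZK1 hold the same element, so it counts more than once. Stretches of 60 bases from 5 of these genes are shown. Expressed and near-silent genes both carry the HNF1 core. PDZK1 and AADAT, the only genes with the HNF4 element among the 28 with a window, were at 1 FPKM or more. A link of either motif to the level was not tested. Each stretch is written 5′ to 3′ along the gene, with the HNF1 core or HNF4 element in capitals. HNF4A carries the core in 2 neighbouring copies.
HNF4A (chr20:44401139-44401198, plus strand): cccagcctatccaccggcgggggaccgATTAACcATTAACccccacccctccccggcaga
ANPEP (chr15:89806673-89806732, minus strand): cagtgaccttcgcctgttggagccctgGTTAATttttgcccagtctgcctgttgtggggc
MIOX (chr22:50486729-50486788, plus strand): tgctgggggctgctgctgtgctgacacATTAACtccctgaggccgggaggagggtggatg
DAB2 (chr5:39425042-39425101, minus strand): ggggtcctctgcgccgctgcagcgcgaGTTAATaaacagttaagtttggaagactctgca
PDZK1 (chr1:145707371-145707430, minus strand): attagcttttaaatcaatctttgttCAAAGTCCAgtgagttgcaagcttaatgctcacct

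Counted from the transcript start, the first HNF4A copy begins at position -73, the ANPEP core at -77 and the MIOX core at -103. The DAB2 core begins at -94 and the PDZK1 element at -37. The AADAT element, which is not shown, begins at position 16, after the start. A match describes the letters of the window and is not a binding site. The TATA box TATAAA, again on both strands, occurred in 4 of 43 windows of the set (9.3%), near the 11.5% of all windows. These windows belong to ALPL, ENPEP, AQP1 and ACE, all under 1 FPKM in control cells. The ratio of observed to expected CpG pairs had a median of 0.72 in the 15 genes with a window at 1 FPKM or more (range 0.00 to 1.02) and 0.56 in the 13 under 1 FPKM (range 0.08 to 0.86), beside 0.63 over all genes. These are descriptions of the windows with overlapping ranges.

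The labelled cell type was checked against marker lists. Of 5 epithelial markers 4 reached 1 FPKM in control cells, and their summed level ran from 677 to 709 FPKM after S100A8, 642 to 671 after S100A9, 678 to 719 after S100A8/S100A9 and 686 to 701 in control libraries. Of 21 proximal tubule transporters 4 reached 1 FPKM, with 5 at 0 in all 12 libraries and the phosphate transporter SLC34A1 and the glucose transporter SLC5A2 at 0.09 and 0.25 FPKM. No collecting duct marker and no endothelial marker of the 8 and 6 listed reached 1 FPKM, and the leukocyte gene PTPRC was at 0. Of the loop and distal list 1 of 8 reached it (CLDN16 at 21.3 FPKM), of the podocyte list 2 of 6, of the fibroblast list 3 of 8 (LUM at 33.8 FPKM) and of the leukocyte list 1 of 8 (CD68 at 62.7 FPKM). In turn, 7 of 10 genes of injured or dedifferentiated tubule reached 1 FPKM, with VIM at 417 FPKM.

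With libraries fitted by group alone, 0 of the 28 genes that could be tested passed in any comparison of the 3 proteins with PBS or with each other. edgeR's quasi-likelihood test was run on the counts of 13512 genes, with Benjamini-Hochberg adjusted p under 0.05 as the threshold. Of the 37 genes, 28 had enough counts to be tested, namely the 19 at 1 FPKM or more and 9 of the lower ones. LRP2, ANPEP, ALPL, AQP1, CA4, FBP1, PCK1, GLYAT and CYP4A11 were not tested. DESeq2 and limma, fitted the same way, also called 0 of 28 in each of the 6 comparisons. Over all genes tested the share called was 0.0074% for S100A8 against control, 0.148% for S100A9 against control and 0% for S100A8/S100A9 against control. It was 0.185% for S100A9 against S100A8, 0.252% for S100A8/S100A9 against S100A9 and 0% for S100A8/S100A9 against S100A8. A count of 0 of 28 is near that background in each comparison.

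The median log2 fold change of the 28 genes was -0.03 after S100A8, -0.02 after S100A9 and 0.01 after S100A8/S100A9 against control, beside 0 over all genes in each case. In the same order, 12, 13 and 15 of the 28 lay above 0. The intervals, from the fit by group alone, limit how large a difference between these libraries could have been. Since the spread between libraries may be technical, they set no limit for other cultures. For all 19 genes at 1 FPKM or more the 95% interval of the log2 fold change stayed within 1 on either side of 0 in each of the 6 comparisons, and for 16 or 17 of them within 0.5. Against control, the outermost bounds were those of FXYD2, -0.64 after S100A8 and 0.61 after S100A8/S100A9. For the less expressed genes the intervals were wider: HNF4A after S100A8/S100A9 ran from -1.90 to -0.08.

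**Figure D2:**
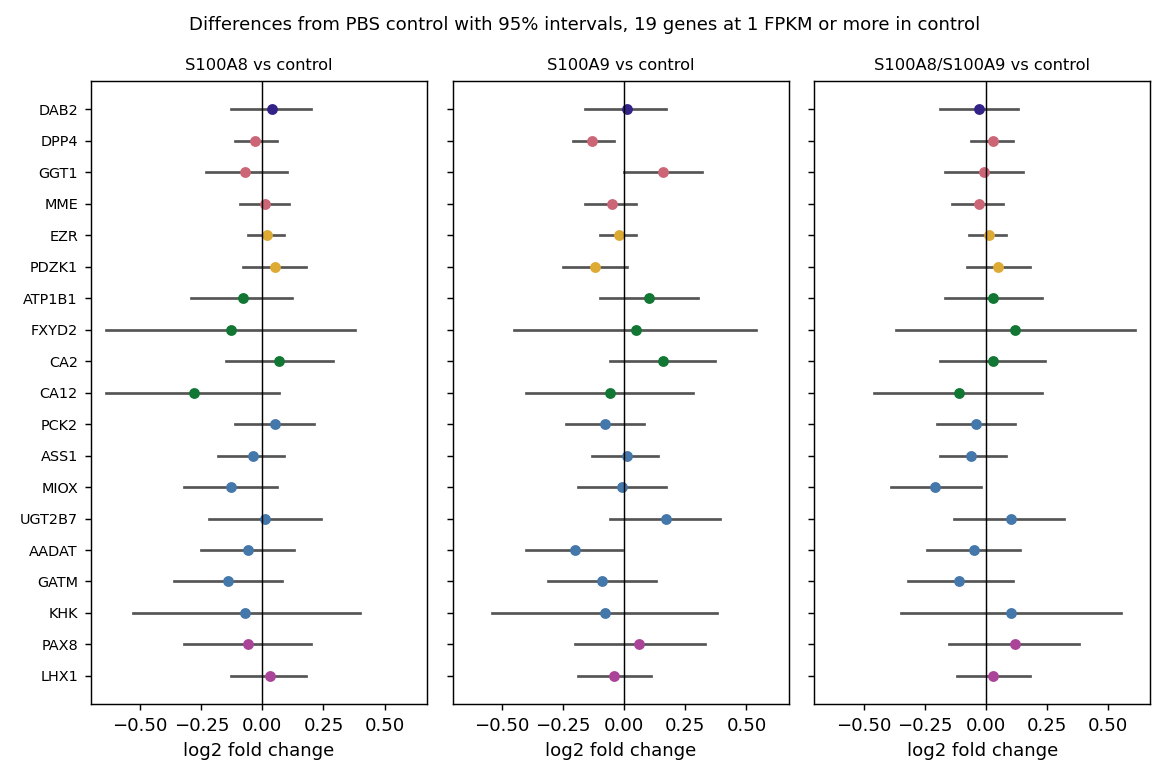
Log2 fold change against PBS control with its 95% interval (edgeR) for the 19 genes at 1 FPKM or more in control, after S100A8, S100A9 and S100A8/S100A9, with colours for the roles. All 19 intervals stay within 1 on either side of 0 in the 3 panels, and FXYD2, KHK and CA12 have the widest.

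Set against control, S100A8 left 1 of 28 genes at an unadjusted p under 0.05, beside 3.53% of all genes tested. That gene was VIL1, which gave 3.1, 2.50 and 1.16 CPM after S100A8, 3.45, 3.19 and 3.40 after S100A9, 2.28, 3.77 and 2.88 after S100A8/S100A9, and 3.79, 2.88 and 3.63 in control cells, in TMM-normalised CPM. The S100A8 and control libraries of VIL1 overlapped at 2.88 to 3.1 CPM, and the lowest S100A8 library was well below the rest. Its log2 fold change was -0.61 (SE 0.26), with an adjusted p of 1 by edgeR's quasi-likelihood test, and it was -0.30 without that lowest library. In the other direction the smallest p belonged to DDC, which gave 0.790, 0.814 and 1.28 CPM after S100A8, 0.468, 1.03 and 1.26 after S100A9, 0.728, 0.957 and 1.15 after S100A8/S100A9, and 0.525, 0.752 and 0.623 in control cells. DDC was the 1 gene of 28 whose S100A8 and control libraries did not overlap, beside 8.54% of all genes, at a log2 fold change of 0.60 (SE 0.40, edgeR adjusted p = 1), and it rested on 8 to 23 counts per library. Without the highest S100A8 library (replicate 3) the DDC value was 0.34.

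S100A9 against control left 2 of 28 genes at an unadjusted p under 0.05, beside 5.85% of all genes, and the same 2 were without overlap, beside 12% of all genes. DPP4 gave 308, 309 and 319 CPM after S100A8, 291, 287 and 295 after S100A9, 313, 310 and 347 after S100A8/S100A9, and 315, 316 and 322 in control cells. Its 3 S100A9 libraries were the lowest 3 of the 12. The log2 fold change against control was -0.13 (SE 0.04), with an adjusted p of 0.46 by edgeR's quasi-likelihood test. AADAT gave 17.7, 19 and 14.4 CPM after S100A8, 16.0, 15.0 and 15.3 after S100A9, 17.0, 17.0 and 17.6 after S100A8/S100A9, and 17.0, 19 and 17.3 in control cells, with S100A9 libraries below all control libraries, at a log2 fold change of -0.20 (SE 0.09, edgeR adjusted p = 0.83). In the other direction GGT1 was first and gave 31.2, 26.1 and 30.1 CPM after S100A8, 34.3, 36.4 and 31.5 after S100A9, 32, 27.0 and 31.8 after S100A8/S100A9, and 31.8, 31.0 and 28.9 in control cells. Its S100A9 and control libraries overlapped, at a log2 fold change of 0.16 (SE 0.08, edgeR adjusted p = 0.85), which was 0.10 without S100A9 replicate 2.

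S100A8/S100A9 against control left 3 of 28 at an unadjusted p under 0.05, beside 5.6% of all genes, with negative log2 fold changes in all 3. MIOX gave 16.0, 18.4 and 17.2 CPM after S100A8, 16.5, 20 and 19.5 after S100A9, 15.8, 17.2 and 16.1 after S100A8/S100A9, and 17.9, 20.4 and 18.4 in control cells. The 3 S100A8/S100A9 libraries of MIOX lay below the 3 control libraries, though close to those after S100A8, at -0.21 on the log2 scale (SE 0.09, edgeR adjusted p = 0.86). HNF4A, at 5 to 12 counts after S100A8/S100A9 and 12 to 19 counts in control cells, had a log2 fold change of -0.99 (SE 0.44, edgeR adjusted p = 0.86). ACE gave 11, 4 and 5 counts after S100A8, 11, 6 and 11 after S100A9, 4, 2 and 2 after S100A8/S100A9, and 4, 9 and 7 in control cells. ACE was lowest after S100A8/S100A9 at 2 to 4 counts per library, with a log2 fold change of -1.44 against control, resting on these few counts. With UGT2B7, these were the 4 genes without overlap, beside 10.7% of all genes. UGT2B7 gave 11, 11.8 and 13.4 CPM after S100A8, 15.4, 14.0 and 11.2 after S100A9, 12.9, 13.2 and 12.5 after S100A8/S100A9, and 12.1, 11.8 and 12.1 in control cells, at a log2 fold change of 0.10.

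Between the proteins, S100A9 against S100A8 left 4 of 28 genes at an unadjusted p under 0.05, beside 7% of all genes. GGT1, with values given above, had a log2 difference of 0.23 (SE 0.08, edgeR adjusted p = 0.47), and VIL1 of 0.57. The GGT1 difference was 0.15 without S100A8 replicate 2 and 0.10 without the 4 libraries numbered 2. PDZK1 gave 39.6, 42.3 and 39.1 CPM after S100A8, 37.7, 33.2 and 36.8 after S100A9, 40.4, 39.7 and 40.9 after S100A8/S100A9, and 37.3, 38.1 and 41.2 in control cells. Its S100A9 libraries lay below all those of S100A8 and S100A8/S100A9, with a log2 difference of -0.17 from S100A8 (SE 0.06, edgeR adjusted p = 0.54), which was -0.08 without the 4 libraries numbered 2. Without overlap were 5 genes, the last being PAX2, beside 12.5% of all genes. PAX2 gave 3.1, 3.14 and 3.13 CPM after S100A8, 4.68, 3.19 and 3.29 after S100A9, 3.59, 1.74 and 3.35 after S100A8/S100A9, and 2.39, 1.63 and 3.85 in control cells, with 1.74 to 3.59 CPM within the S100A8/S100A9 group alone.

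For S100A8/S100A9 against S100A9, 5 of 28 were at an unadjusted p under 0.05, beside 7.15% of all genes, and 4 were without overlap, beside 12.5%. In the fit by group alone, DPP4 had the smallest p of the 28 genes in any comparison, at a log2 difference of 0.15 (interval 0.07 to 0.24, edgeR adjusted p = 0.21). With the replicate number added to the fit, DPP4 passed (edgeR adjusted p = 0.025), beside 0.525% of all genes. The values above show 310 to 347 CPM after S100A8/S100A9 and 287 to 295 CPM after S100A9, and the difference was 0.10 without the highest S100A8/S100A9 library. The log2 difference was 0.17 for PDZK1 (SE 0.06), -0.20 for MIOX and -0.17 for GGT1, and ACE stood at -1.81 on its few counts (edgeR adjusted p = 0.49 for ACE). For S100A8/S100A9 against S100A8, ACE alone had an unadjusted p under 0.05 (1 of 28, beside 4.43% of all genes) and alone was without overlap (beside 9%), at a log2 difference of -1.43 that was -0.85 without S100A8 replicate 1. A test of any difference among the 4 groups called 0 of 28 genes by edgeR's quasi-likelihood F-test, beside 0.222% of all genes, with 4 at an unadjusted p under 0.05 (DPP4, PDZK1, ACE and GGT1), beside 5.91%.

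**Figure D3:**
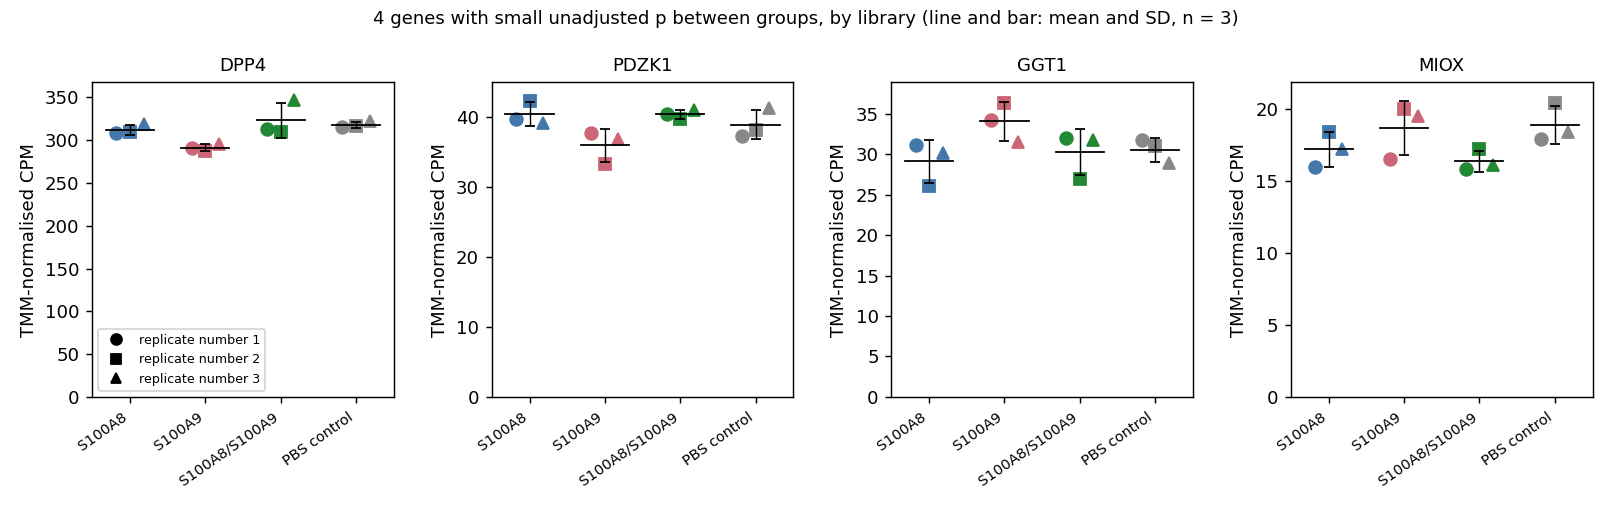
TMM-normalised CPM of DPP4, PDZK1, GGT1 and MIOX in the 12 libraries, with marker shape for the replicate number and the line and bar for mean and SD of 3 libraries. The S100A9 libraries of DPP4 sit at 287 to 295 CPM, below the other 9. No gene shown passed the adjusted threshold in the fit by group alone, and DPP4 passed for S100A8/S100A9 against S100A9 with the replicate number in the fit.

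In the fit by group alone, the remaining genes at 1 FPKM or more gave no unadjusted p under 0.05 between any 2 groups. EZR gave 512, 541 and 525 CPM after S100A8, 526, 507 and 499 after S100A9, 535, 510 and 520 after S100A8/S100A9, and 533, 513 and 511 in control cells. The 12 EZR libraries spanned 499 to 541 CPM, a narrow range for the most abundant gene of the set. MME gave 82.0, 81.6 and 81.8 CPM after S100A8, 73.1, 79.3 and 81.9 after S100A9, 75.9, 79.8 and 82.3 after S100A8/S100A9, and 82.8, 82.4 and 78.3 in control cells. Levels of DAB2 were 24.9, 26.8 and 28.8 CPM after S100A8, 26.6, 24.5 and 27.8 after S100A9, 26.9, 23.6 and 26.4 after S100A8/S100A9, and 24.0, 27.8 and 26.7 in control cells. PCK2 gave 78.7, 96.0 and 91.9 CPM after S100A8, 82.0, 81.0 and 80.9 after S100A9, 81.2, 89.3 and 81.6 after S100A8/S100A9, and 83.2, 96.7 and 78.6 in control cells. For MME, DAB2 and PCK2 the groups overlapped in all 6 comparisons.

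ASS1 gave 27.1, 28.3 and 27.1 CPM after S100A8, 29.4, 28.6 and 27.4 after S100A9, 26.6, 27.6 and 27.4 after S100A8/S100A9, and 27.3, 29 and 28.7 in control cells. GATM gave 11.7, 12.8 and 12 CPM after S100A8, 10.9, 13.2 and 13.6 after S100A9, 12, 12.8 and 12.5 after S100A8/S100A9, and 13.7, 14.9 and 11.8 in control cells. KHK gave 4.19, 2.15 and 3.37 CPM after S100A8, 3.1, 3.09 and 3.40 after S100A9, 4.61, 2.99 and 3.19 after S100A8/S100A9, and 3.38, 2.70 and 4.02 in control cells. These enzymes of arginine, creatine and fructose metabolism overlapped between groups in all 6 comparisons. CA2 gave 18, 15.9 and 19.1 CPM after S100A8, 20.9, 17.3 and 18.2 after S100A9, 18.4, 14.0 and 18.7 after S100A8/S100A9, and 15.8, 17.1 and 17.6 in control cells. CA12 gave 3.77, 4.59 and 4.12 CPM after S100A8, 4.74, 5.30 and 4.56 after S100A9, 5.39, 3.89 and 4.71 after S100A8/S100A9, and 4.08, 6.02 and 5.15 in control cells, with the largest log2 difference of the 19 genes after S100A8, -0.28 with an interval of -0.64 to 0.07. LHX1 gave 40.7, 47.2 and 43.8 CPM after S100A8, 38.4, 46.4 and 40.8 after S100A9, 44.5, 44.5 and 42.7 after S100A8/S100A9, and 40.4, 47.8 and 41.3 in control cells, with overlap of all groups. ENPEP, AMN, CUBN and CYP27B1, tested at lower levels, had no unadjusted p under 0.05 either.

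ATP1B1 was called for a difference by replicate number by edgeR on counts and by limma on FPKM. PAX8 and FXYD2 were called by edgeR on counts alone. The same numbers 1, 2 and 3 stand in every group, and the labels do not say what they mark. In a fit with group and number together, edgeR's quasi-likelihood F-test called ATP1B1, PAX8 and FXYD2 for the number, 3 of 28, beside 2.59% of all genes, and 10 of 28 were at an unadjusted p under 0.05, beside 14.1%. On log2(FPKM + 1), limma called ATP1B1 alone of the 28, beside 44 of all 13512 genes, where edgeR on counts called 350. Tool and unit changed together here, so their parts cannot be told apart. ATP1B1 gave 135, 112 and 121 CPM after S100A8, 151, 125 and 143 after S100A9, 141, 121 and 137 after S100A8/S100A9, and 139, 121 and 131 in control cells. PAX8 gave 331, 274 and 280 CPM after S100A8, 353, 286 and 324 after S100A9, 368, 305 and 325 after S100A8/S100A9, and 317, 275 and 329 in control cells. FXYD2 gave 13.7, 8.61 and 13.2 CPM after S100A8, 14.3, 12 and 13.7 after S100A9, 17.6, 12.1 and 12.1 after S100A8/S100A9, and 16.0, 9.90 and 12.7 in control cells. In each of the 4 groups the library numbered 2 was the lowest for all 3 genes, before rounding. For ATP1B1 the S100A9 library was also above the S100A8 library of the same number for all 3 numbers. With the number in the fit, ATP1B1 passed for S100A9 against S100A8 (edgeR adjusted p = 0.016), beside 0.511% of all genes.

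Averaged over the groups, ATP1B1 was at 120 ± 5.33 CPM in libraries numbered 2 and 142 ± 6.70 CPM in those numbered 1 (SD, n = 4 each), a log2 difference of -0.24 (interval -0.31 to -0.17, edgeR adjusted p = 8.6e-05). PAX8 was at 285 ± 14.3 CPM in number 2 and 342 ± 23.0 CPM in number 1, a log2 difference of -0.26 (interval -0.34 to -0.19, edgeR adjusted p = 2e-04). FXYD2 was at 10.6 ± 1.69 CPM in number 2 and 15.4 ± 1.76 CPM in number 1, a log2 difference of -0.53 (interval -0.72 to -0.34, edgeR adjusted p = 0.0025). The 3 genes were thus lower in number 2 by a small margin, largest in FXYD2. Libraries numbered 3 lay between them, at 133, 315 and 12.9 CPM for ATP1B1, PAX8 and FXYD2. The number took 67.2% of the variance of ATP1B1 on the log2 scale and the group 29.9%. For DPP4 the shares were 19.6% and 67.8%, and for 15 of the 28 genes the number took the larger share. The median share over the 28 genes was 25.5% for the number and 25.2% for the group. These shares were not taken over all genes tested, and the group has more levels than the number, so they are not directly comparable. ATP1B1 shares 192 exon bases with NME7 and PAX8 685 with PAX8-AS1, both on the opposite strand. FXYD2 shares 433 with AP000757.2 on the opposite strand. It also shares 392 with FXYD6-FXYD2 on the same strand, which gave 14 counts over all 12 libraries.

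**Figure D4:**
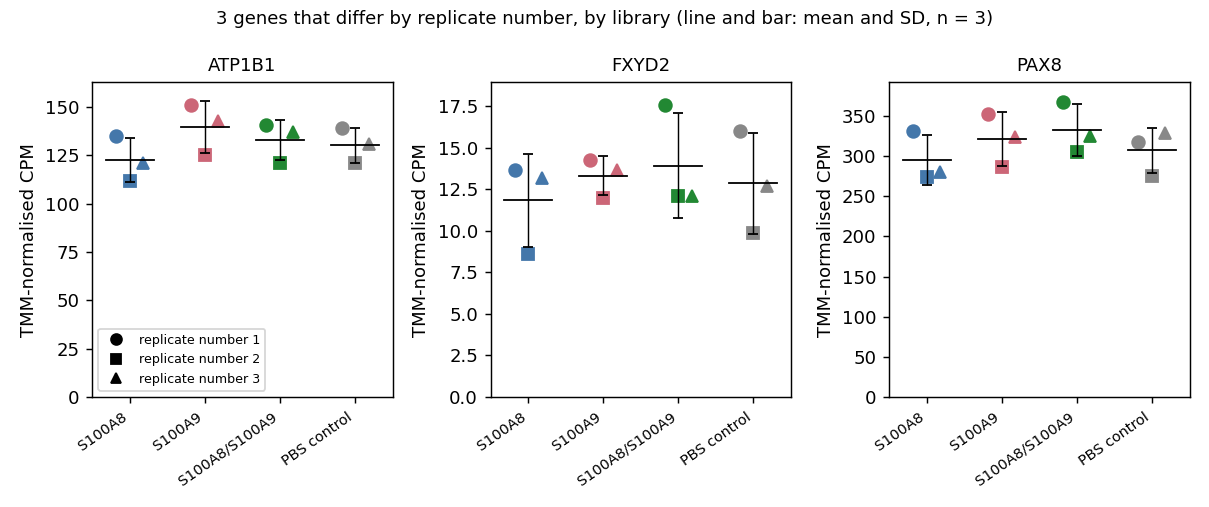
TMM-normalised CPM of ATP1B1, FXYD2 and PAX8 in the 12 libraries, with marker shape for the replicate number and the line and bar for mean and SD of 3 libraries. Squares, the libraries numbered 2, are lowest in each of the 4 groups for all 3 genes. Of these, limma on log2(FPKM + 1) called ATP1B1 alone, beside 44 of all 13512 genes.

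The companion lists of the same pathways describe the surroundings of these genes. They held 12 endocytic partners, 14 brush border structure genes, 11 other sodium pump genes, 11 other peptidases, 12 other carbonic anhydrases, 31 other enzymes and 20 other kidney transcription factors, in all 111 genes, of which 64 could be tested. In control cells 12, 7, 5, 3, 3, 9 and 8 of these lists' genes reached 1 FPKM, in the order given. edgeR's quasi-likelihood test, DESeq2 and limma each called 0 of the 64 in all 6 comparisons, beside 0% to 0.252% of all genes by edgeR. In each comparison 1 to 5 of the 64 were at an unadjusted edgeR p under 0.05, beside 3.53% to 7.15% of all genes. By replicate number, the genes called included ATP1B3, another sodium pump beta subunit, the scaffold NHERF1 and the transcription factor PPARA. Markers of other cell types called by the number were CLDN16 and CALB1 of the loop and distal list and LUM of the fibroblast list, and their part in the ATP1B1, PAX8 and FXYD2 differences was not tested. In the injured tubule list, CD24 and KRT7 were called for S100A8/S100A9 against S100A9 (2 of 10, beside 0.252% of all genes). Their log2 fold changes were 0.23 (SE 0.04, edgeR adjusted p = 0.014) and 0.25 (SE 0.05, edgeR adjusted p = 0.013). Against control, 0 of the 10 were called after any protein. The summed level of that list was 634 to 651 FPKM after S100A8 and 599 to 609 FPKM after S100A9. It was 635 to 664 FPKM after S100A8/S100A9 and 624 to 648 FPKM in control libraries. VIM, at 417 FPKM in control cells, is the largest part of that sum and was not called. The part of this list in the DPP4 and PDZK1 differences for S100A8/S100A9 against S100A9 was not tested.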

How the data were processed

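RNA was sequenced from HK-2 cells in 4 groups of 3 libraries. Per the file headers, the deposited table gives the authors' expected count and FPKM per gene; 12% of count entries were not whole and were rounded. No aligner, counter or annotation is given in the sources used here. Mouse builds (GRCm38, mm10) stand in the submitters' processing notes, but the table's identifiers are human Ensembl ones; 20228 were named through the gene name table, 50 through GENCODE 29, and 8 had no name. The 37 genes and all lists were chosen with earlier results of these data known. Levels between genes use FPKM.

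Tests used edgeR 4.0.16 (R 4.3.3): TMM, filterByExpr (minimum count 10), a robust quasi-likelihood fit over all 12 libraries with 1 coefficient per group, and Benjamini-Hochberg adjustment over 13512 genes, threshold 0.05. Intervals are 95% and two-sided tests were used. The script was tested on simulated data. Alternatives were DESeq2 1.42.0, its size factors, no count filter, limma 3.58.1 on log2(FPKM + 1), a replicate block and leaving out libraries. Values per library are given for genes at 1 FPKM or more in control, for those with the smallest p in each direction of each comparison, and for LRP2, CUBN, HNF4A and AQP1. Library totals ranged from 15882193 to 20748334 counts, and limits at 0 counts cover counting error only.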

Additional observations from a re-analysis of the deposited data

How the results depend on the processing

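Between the groups, 0 of the 28 tested genes passed under DESeq2's size factors and test, without a filter on low counts, with limma on log2(FPKM + 1), without the 4 libraries numbered 2 (chosen after seeing the data), and with each library left out in turn (0 to 0 in each comparison). With a replicate block, ATP1B1 passed for S100A9 against S100A8 (1 of 28, edgeR adjusted p = 0.016) and DPP4 for S100A8/S100A9 against S100A9 (1 of 28, log2 0.15, edgeR adjusted p = 0.025), beside 69 and 71 calls over all genes (0.511% and 0.525%); the block added no other call among the 28. In the check of pairing, 12 of 18 same-number pairs correlated above 0.1 (-0.18 to 0.41), among them all 6 pairs numbered 2 (0.12 to 0.41). Since 6 pairs numbered 1 or 3 did not, the numbers were not taken to pair the libraries; 8 of 12 libraries correlated best with their own number, a hint from the data. The count of genes that differ by replicate number was 3 to 4 with libraries left out. It was 1 (ATP1B1) with limma on log2(FPKM + 1), which called 44 over all genes. The cause was not tested. Among single values, VIL1 after S100A8 against control was -0.91 without S100A8 replicate 1, and for S100A8/S100A9 against S100A8 it was 0.69 without S100A8 replicate 1 and 0.08 without replicate 3 (0.39 with all). On log2(FPKM + 1), which shrinks low genes by construction, ACE for S100A8/S100A9 against S100A9 was -0.35. Depth limits statements on the 9 untested genes.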

Other observations

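The level of MME and LHX1 depended on the unit. In FPKM, MME had 24.5, 26.1 and 22.4 after S100A8 and 20.2, 22.1 and 20.7 in control libraries, without overlap, while its CPM overlapped. The limma difference on log2(FPKM + 1) was 0.20 (SE 0.06) with an adjusted p of 1. The transcript length implied by the counts and FPKM was 3382 ± 255 bases after S100A8 and 3883 ± 195 bases in control libraries (SD, n = 3 each), so the authors' length estimate for MME was not constant. For LHX1 the implied length was 3028 ± 460 bases after S100A8/S100A9 and 2445 ± 52 bases in control libraries. Whether transcript forms differ was not tested. GGT1 had 33.0, 34.5 and 30.5 FPKM after S100A9 and 28.6, 28.5 and 27.1 FPKM in control libraries, without overlap. Its limma difference was 0.21, with a limma adjusted p of 0.65. For FPKM, the share of all genes without overlap was not taken. In CPM that share was 8.54% for S100A8 against control and 12% for S100A9 against control.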
